A study of Triticum aestivum with 8 samples.

Results

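The transcripts described here rose in the wheat embryo at both of the sampled steps of early germination, from dry seed to 16 h of imbibition and again from 16 h to 24 h. They were chosen on the measured values. A probe was a member if it was well above background on all 8 arrays, its mean at 16 h exceeded its dry-seed mean by at least 1.5 on the log2 scale, and its mean at 24 h exceeded its 16 h mean by at least 1.5. A rise of 1.5 is a 2.83-fold difference, so every member was at least 8-fold higher at 24 h than in dry embryos. The rule found 142 members among 43603 wheat probes, or 0.596% of the 23844 that were well above background on all 8 arrays. The size of either step is therefore a description of the choice and was not tested.

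The embryos came from bread wheat of the cultivar Norin61. Dry grains were the starting group (2 arrays), and other grains were imbibed without light at 25 °C on damp cotton for 16 h (3 arrays) or 24 h (3 arrays). Grains entered the 16 h group with a radicle, the embryonic root, of at least 3 mm, and the 24 h group with one of at least 7 mm, so both imbibed groups hold selected, germinated grains. Each array was hybridised with the Cy3-labelled RNA of 7 pooled embryos, and 21 grains were collected for a stage; 2 pools of the dry stage are analysed here. The hours follow the sample titles, although the imbibed samples' description fields read 8 and 16 h. The arrays lay on 2 slides, each with arrays of all groups. The unscaled 75th percentile of the wheat probes ran between 246 and 262 in dry embryos, between 1171 and 1514 at 16 h and between 1367 and 1722 at 24 h (linear signal). Levels are log2 signals relative to that percentile of the same array, so they describe a transcript's standing among the other transcripts and not its amount per embryo.

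A mature cereal grain carries stored messenger RNA, and transcription resumes soon after it takes up water. Stored transcripts are then degraded while those for metabolism, wall extension and cell division accumulate, and the coleorhiza and radicle break through the grain's outer layers. Later the seedling grows on reserves released from the endosperm. In RNA of whole embryos, a larger number of cells with a transcript and more of it per cell cannot be told apart.

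The members carried 123 sequence names. Of the 142, 65 (45.8%) were named after assembled transcripts (names that start with TA), against 48.8% of all 23844 detected probes. A further 69 (48.6%) were named by a sequence accession, against 39.7% of the detected probes. Assemblies whose names start with TC named 6 (4.23%), against 10.6% of the detected probes, and 2 (1.41%) had the probe ID alone, against 0.948%. The files pair these names with no gene symbol or description, and 0 of 40253 names on the array matched the wheat gene table used here. Members are therefore given by probe and sequence name, with no function attached, and the embryo label could not be set against marker genes.

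The members were low in dry embryos and stood among the brighter transcripts at 24 h. The median member level was -2.76 and -2.71 on the arrays of dry embryos, 1.35, 0.12 and 0.32 on the 16 h arrays, and 2.96, 2.46 and 2.90 on the 24 h arrays. Over all detected probes the median stayed between -0.38 and -0.33 on every array. The dry-seed arrays were close to each other, and the lowest 24 h array was above the highest 16 h array. The members' mean levels spanned -4.77 to 3.65 in dry embryos, -2.52 to 5.37 at 16 h and -0.76 to 7.13 at 24 h.

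**Figure D1:**
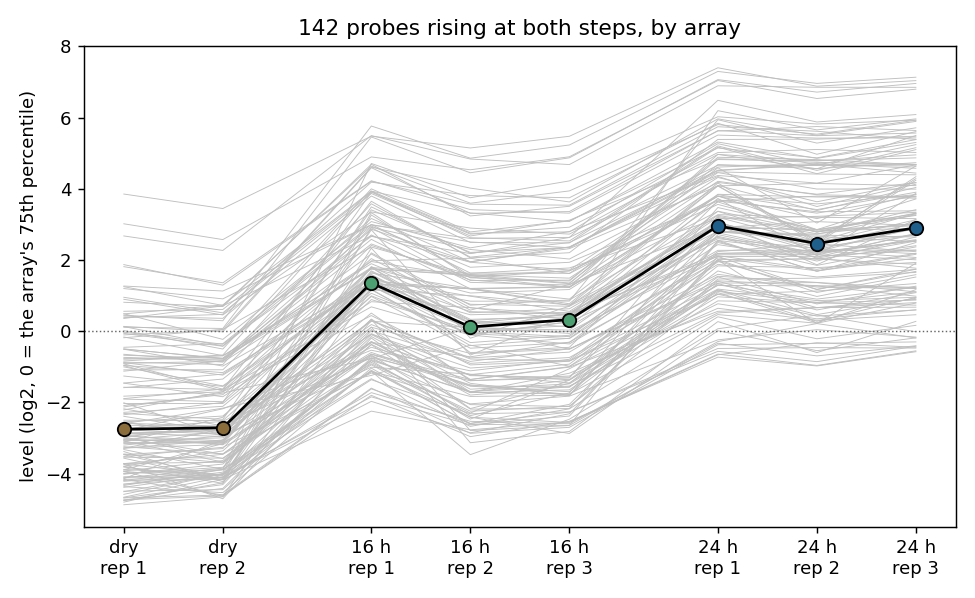
Level of each of the 142 members (grey lines) and their median (black line, coloured points) on the 8 arrays, as log2 signal relative to the array's 75th percentile. The median lies at -2.76 and -2.71 in dry embryos and reaches 2.46 to 2.96 at 24 h, and 16 h replicate 1 (1.35) lies above 16 h replicates 2 and 3 (0.12 and 0.32).

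The median rise was 2.53 for the first step and 1.97 for the second (log2). Over both steps together the median was 4.86, or 29.0-fold, with a lower quartile of 17.4-fold and an upper quartile of 56.1-fold. At least 32-fold was reached by 62 members and at least 100-fold by 15. For 89 members the first step was the larger, and for 53 it was the second. All steps here use the mean of the 16 h arrays. Against replicate 1 alone the median first and second steps were 3.33 and 1.32. Against replicates 2 and 3 alone the second was the larger (2.14 and 2.40, then 2.15 and 2.30). The steps differed by less than 1 for 82 members, the first was larger by at least 1 for 46, and the second was larger by at least 1 for 14. Both steps were at least 2 for 45 members and at least 2.5 for 13, and no member rose by 3 or more at both.

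**Figure D2:**
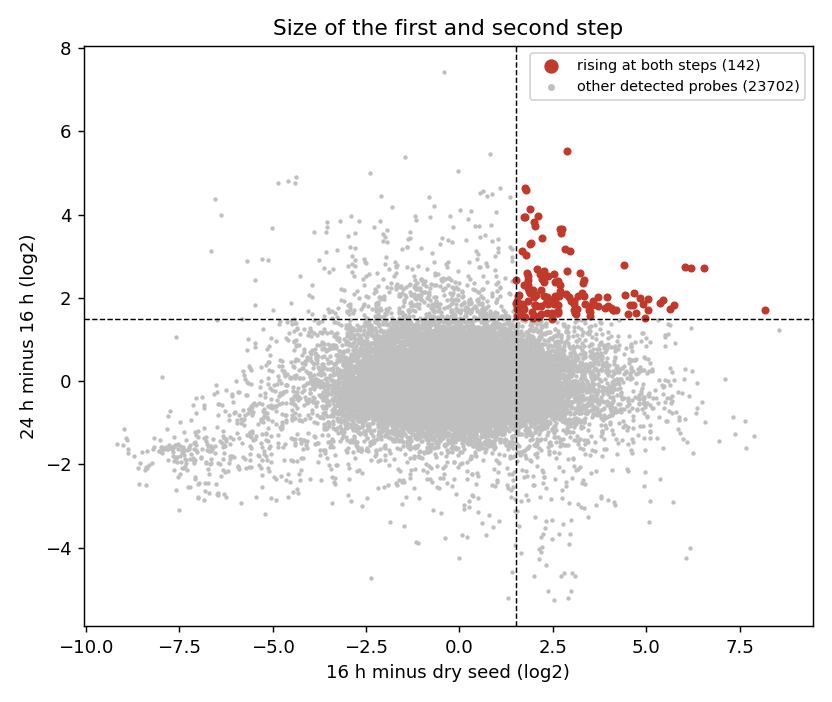
First step (16 h minus dry seed, log2) against second step (24 h minus 16 h, log2) of each probe well above background on all 8 arrays, with the 142 members in red and the other 23702 probes in grey. Dashed lines mark 1.5, the minimum the rule sets for each step; the members' first steps reach 8.17 and their second steps 5.53.

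The steepest member over the whole time was probe A_99_P229621 (TA61444_4565), which was 936-fold higher at 24 h than in dry embryos. Its level was -4.00 and -3.89 in dry embryos, 4.71, 3.75 and 4.22 at 16 h, and 6.02, 5.82 and 5.93 at 24 h. Most of its rise was already present at 16 h: the first step of 8.17 (limma SE 0.25) made up 82.8% of the whole, and the second was 1.70 (SE 0.23). Probe A_99_P263521 (TA70992_4565) likewise took most of its rise early, with a first step of 4.96 and a second of 1.51.

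A trio of probes followed it with nearly equal values. Probe A_99_P530087 (TA66390_4565) had levels of -4.75 and -4.26 in dry embryos, 3.26, 1.55 and 1.33 at 16 h, then 4.84, 4.74 and 4.68 at 24 h, a 615-fold difference between 24 h and dry seed. Probe A_99_P247391 (TA66389_4565) was 487-fold higher and probe A_99_P546587 (Y09917) 440-fold higher at 24 h than in dry embryos. On the 16 h arrays they stood at 3.33, 1.5 and 1.41 and at 2.91, 1.42 and 1.43. All 3 probes were high on 16 h replicate 1 and near each other on replicates 2 and 3, and at 24 h the replicates of each lay close together. The dry-seed means of the 3 probes (-4.51, -4.13 and -4.12) were also near the lowest of all detected probes (-4.82). The sizes of their folds thus rest on dim values too. Whether the 3 probes report separate transcripts was not tested.

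In other members the second step was the larger. Probe A_99_P215401 (TA56268_4565) had the largest second step and stood at -2.55 and -2.38 in dry embryos, 1.06, -0.10 and 0.27 at 16 h, and 6.20, 5.66 and 5.96 at 24 h. The second step of 5.53 (limma SE 0.29), or 46.1-fold, followed a first step of 2.88 (SE 0.32). Probes A_99_P507012 (TA58795_4565) and A_99_P227226 (TA60757_4565) gave the smallest share of their rise to the first step. For A_99_P507012 the levels were -0.51 and -0.98 in dry embryos, 1.37, 0.84 and 0.85 at 16 h, and 5.94, 5.28 and 5.71 at 24 h. For A_99_P227226 the first step was 1.79 and the second 4.59. In each of these 3 the 24 h arrays lay far above the 16 h arrays, by more than the spread within either group.

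The probes with the strongest signals at 24 h included some that were well above the array's 75th percentile in dry embryos. Probe A_99_P616352 (TA60348_4565) stood at 3.85 and 3.45 in dry embryos, at 5.48, 5.15 and 5.48 at 16 h and at 7.40, 6.88 and 7.04 at 24 h. Probe A_99_P597402 (TA61007_4565) took a like course, with 3.02 and 2.57 in dry embryos, 4.90, 4.53 and 4.90 at 16 h and 7.04, 6.54 and 6.80 at 24 h. Both rose in nearly equal steps. Probe A_99_P229736 (TA61471_4565) began near the percentile, with 0.45 and 0.29 in dry embryos, 5.76, 4.86 and 5.23 at 16 h, and 7.30, 6.96 and 7.14 at 24 h. Probe A_99_P229656 (TA61451_4565) had 0.11 and 0.08 in dry embryos, 5.46, 4.45 and 4.87 at 16 h, and 7.07, 6.72 and 6.96 at 24 h. Both took most of their rise in the first step, 4.92 for A_99_P229736 and 4.83 for A_99_P229656.

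Together the members took a growing share of the array signal. Summed over the 142 probes, the processed signal was 0.0579% and 0.0518% of that of all wheat probes in dry embryos, 0.810%, 0.461% and 0.508% at 16 h, and 2.27%, 1.90% and 2.24% at 24 h. These shares follow from the choice of members. The groups did not overlap, and the group means were 0.0548% ± 0.00431 in dry embryos (SD, n = 2), 0.593% ± 0.189 at 16 h (SD, n = 3) and 2.14% ± 0.206 at 24 h (SD, n = 3). In dry seed no member was among the 1000 brightest probes of either array. On the 16 h arrays 10, 5 and 5 members were, and on the 24 h arrays 32, 32 and 34. The 10 members brightest at 24 h held 37.3% to 39.5% of the members' signal at 24 h and 36.3% and 39.9% of it in dry embryos. At 16 h they held 34.9%, 40.1% and 43.6%. The total was thus similar at both ends of the time course, but its make-up was not. Between dry seed and 24 h the 10 probes rose by 11.0-fold (A_99_P616352) to 936-fold (A_99_P229621).

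**Figure D3:**
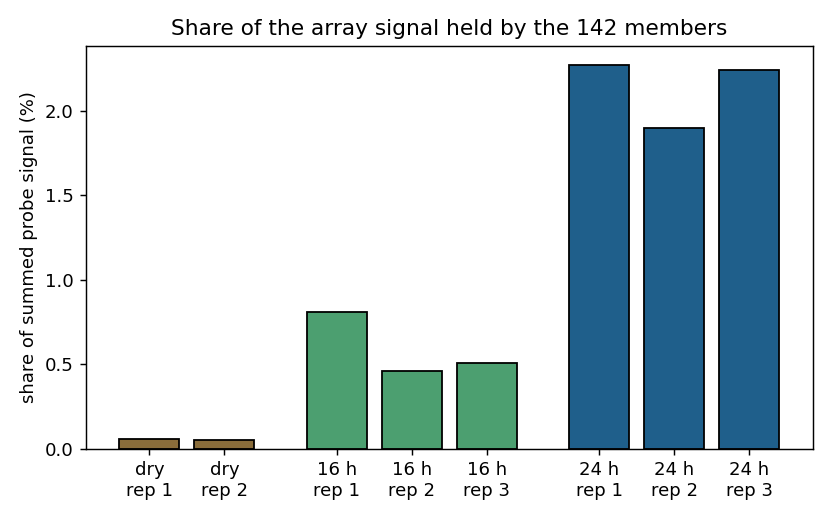
Share of the summed processed signal of all wheat probes held by the 142 members, in percent, on each of the 8 arrays. The share is below 0.06% on both dry-seed arrays, between 0.461% and 0.810% at 16 h and between 1.90% and 2.27% at 24 h.

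The 16 h arrays differed in the members' levels. Replicate 1 gave the highest level of the 3 arrays for 137 of 142 members (96.5%), whereas it was highest for 41.0% of all detected probes. It was the lowest for 1.41% of the members and for 38.4% of all detected probes, which thus deviated on it in both directions. The rule used the mean of the 16 h arrays but not their order. A total of 71 of the 142 members were at least 1 higher (log2) on replicate 1 than on the mean of replicates 2 and 3, and the median difference was 1.00. Among all detected probes 1.35% were higher on replicate 1 by as much, and the median of the signed difference was 0.01. The range over the 16 h arrays was at least 1 for 57.7% of the members and 3.8% of the detected probes. In dry seed it reached 1 for 0.704% of the members and at 24 h for 4.93%.

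Placed between the dry-seed mean (0%) and the 24 h mean (100%), the median member stood at 72.2% on 16 h replicate 1, at 47.2% on replicate 2 and at 48.9% on replicate 3. Taken against each 16 h array alone, the median first step was 3.33, 2.14 and 2.15 and the median second step 1.32, 2.40 and 2.30 in the same order. The second step was at least 1.5 for 54 of 142 members against replicate 1, for 140 against replicate 2 and for 141 against replicate 3. Which step was the larger for the median member thus depended on the 16 h array used. Probes that met only the rule's first step (3123 probes) did not show the pattern to this extent, since replicate 1 was highest for 43.5% of them and the median difference was 0.03. Probes that met only the second step (531 probes) did, with replicate 1 highest for 85.5% and a median difference of 0.61.

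Values that describe a whole array follow for comparison. Replicate 1 shared slide 1 with 16 h replicate 2, which was the lowest of the 3 arrays for 89 members. Its unscaled 75th percentile was 1514, against 1460 and 1171 on replicates 2 and 3, and it had 31232 probes well above background, against 28889 and 31106. Its spike-in offset, the median log2 deviation of the added control RNAs, was 0.016, against 0.229 and -0.097. The part of these measures in the members' spread was not tested. At 24 h, replicate 2 (as numbered by the scanner files) was the lowest array for 97 of 142 members (68.3%), against 39.6% of all detected probes. It was the highest for 13.4% of the members and for 40.5% of all detected probes. The members' median difference from the mean of replicates 1 and 3 was -0.33 on replicate 2. It was lowest for 83.2% of the probes that met only the second step (median difference -0.40) and for 33.4% of those that met only the first. The dry-seed arrays showed no such order: each was the higher for 71 members.

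**Figure D4:**
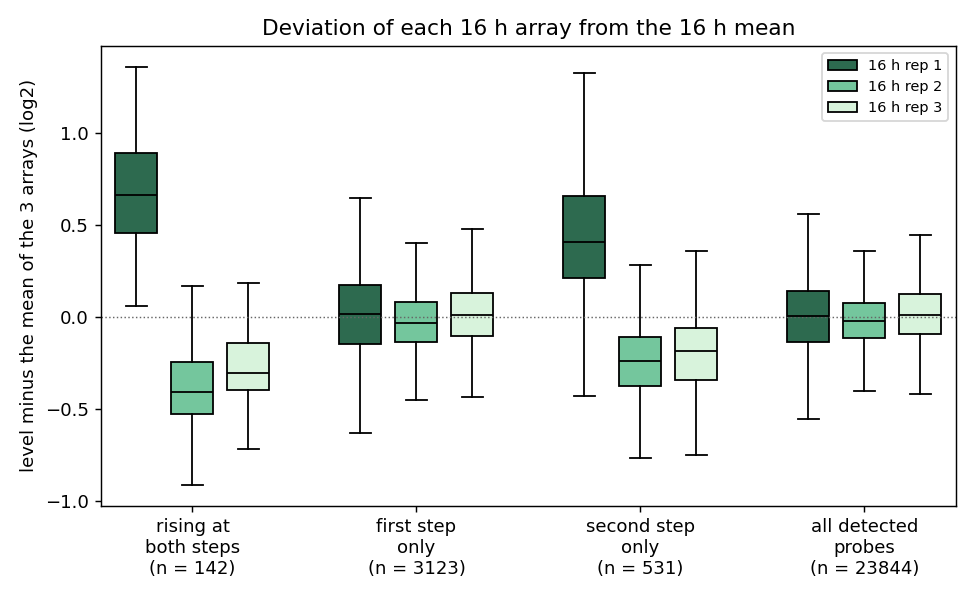
Level on each 16 h array minus the mean of the 3 arrays (log2), for the 142 members, for probes that met only the first or only the second step of the rule, and for all 23844 detected probes. Boxes show quartiles and median over probes and whiskers extend to the last value within 1.5 times the box length; replicate 1 lies above the other arrays for the members and for probes rising at the second step only.

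The arrays of neighbouring groups overlapped for 3 members, a count that the choice on group means largely fixes. Every 16 h array lay above every dry-seed array for all 142 members; 38.2% of the detected probes did so. Every 24 h array lay above every 16 h array for 139 members, against 29.1% of the detected probes, and both held for 139 members, against 11.1%. In the limma fit over all tested probes, 140 members were called higher at 16 h than in dry embryos (25.7% of 30833 tested probes were), 139 higher at 24 h than at 16 h (11.7% were) and 142 higher at 24 h than in dry embryos (29.3% were). Calls at both steps were made for 138 members. The rule used these contrasts, so nothing is read from any of these counts. The labels do not say that pools were grown apart, so the fit's p-values reflect variation among pools that could be technical.

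The 4 members without a call at both steps were those whose 16 h replicates differed most. Probe A_99_P127995 (TA96601_4565) had the widest range, with levels of 0.11, -3.13 and -2.82 at 16 h, against -3.93 and -3.64 in dry embryos and 0.27, -0.60 and 0.27 at 24 h. On replicate 1 it had thus reached its 24 h level, while on replicates 2 and 3 it lay nearer to its dry-seed level. Probe A_99_P560262 (TA50182_4565) likewise lay within its 24 h range on replicate 1 only, at 2.85, -0.20 and 0.70 at 16 h, with -3.89 and -3.16 in dry embryos and 2.80, 2.73 and 3.27 at 24 h. Probe A_99_P199036 (BT008969) stood at -3.47 and -4.12 in dry embryos, 2.33, -0.67 and 0.47 at 16 h, and 2.18, 2.20 and 2.57 at 24 h. For these 3 members the 16 h and 24 h arrays overlapped. Probe A_99_P552387 (TC453225), at -3.80 and -3.36 in dry embryos, 0.33, -2.79 and -2.65 at 16 h and 2.55, 2.23 and 2.54 at 24 h, was not called at the first step but was at the second. Their standard errors for the second step were 0.67 to 0.79.

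The choice was repeated on the arrays of 1 slide and read on the other, whose arrays it had not used. Slide 1 alone (dry seed replicate 1, 16 h replicates 1 and 2, 24 h replicate 1) chose 191 probes. Of these, 161 were well above background on slide 2, and on slide 2 all 161 were higher at 24 h than at 16 h and 159 higher at 16 h than in dry embryos. Both steps reached 1.5 on slide 2 for 111 of the 161 (68.9%), against 0.604% of all detected probes, with median steps of 2.25 and 2.24. Slide 2 alone chose 154 probes, of which 144 were well above background on slide 1. There both steps reached 1.5 for 111 of 144 (77.1%), against 0.675% of all detected probes, with median steps of 2.86 and 1.84. Both counts are of the same 111 probes, 110 of them members, so they are a single overlap read from either side. Probes chosen for a change between the stages are here set against probes not chosen for one. A share above that of all detected probes was therefore bound to appear wherever the stages differ on both slides, and it is no test of the members. The smaller second step on slide 1 is the one that uses 16 h replicate 1. For the 142 members, which were chosen on both slides together, the median second step was 1.93 on slide 1 and 2.26 on slide 2.

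A few sequence names were carried by several member probes, which share a named sequence and are not independent. There were 10 such names with 29 member probes. AK332332 had 7 probes on the array and all 7 were members. Their first steps ran between 2.45 and 3.94 and their second steps between 1.90 and 2.04, although their 24 h levels spread from 0.79 to 5.06. The probe with the highest 24 h level, A_99_P223481, read 0.48 and 0.74 in dry embryos, 3.94, 2.75 and 2.79 at 16 h, and 5.27, 4.66 and 5.24 at 24 h. The dimmest, A_99_P223546, read -4.76 and -4.42 in dry embryos, -0.37, -1.73 and -1.65 at 16 h, and 1.15, 0.28 and 0.95 at 24 h. The probes thus gave nearly the same second step and all 7 were highest on 16 h replicate 1 among the 16 h arrays, while the first step was 3.34 to 3.94 for the 3 probes dimmest in dry embryos and 2.45 to 2.55 for the other 4.

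All 4 probes of L28009 and all 3 of AB267409 and of AK336179 were members too. For L28009 the first step was 1.54 to 2.32 and the second 1.81 to 1.92. For AB267409 the first step was 2.58 to 4.42 and the second 2.01 to 2.06, and for AK336179 the first was 1.82 to 2.26 and the second 2.30 to 2.42. The probes of these names differed more in the first than in the second step. Over all 10 names this was so for 6, and for 4 the second step varied more. The widest case was AY506509, singled out after its values were seen, with first steps of 2.09 and 2.10 and second steps of 1.55 and 3.96.

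The array held 29 other probes for 18 of the 123 names. Both steps were above 0 for 23 of them and at least 1.5 for 14, none of which was well above background on all 8 arrays. For Y09917, the name of a member described above, the other probes had steps of 8.89 and 1.82 (A_99_P093810) and of 4.53 and 2.42 (A_99_P505304). Only 6 of the 29 were well above background on all 8 arrays, and these had failed a step limit, since they were no members. Of these 6, 3 had both steps above 0, while 20.2% of all other detected probes did. The remaining 3 had a first step below 0, although the member of the same name rose. These were A_99_P087835 (DR738204, -1.38 against 3.07), A_99_P257296 (TA69204_4565, -1.39 against 1.98) and A_99_P497542 (AK331265, -0.16 against 1.89). X85228, singled out after its values were seen, had 8 probes, of which 2 were members and 4 others met both steps without signal on all arrays. Member A_99_P225531 read -3.03 and -3.17 in dry embryos, -0.31, -0.72 and -0.31 at 16 h, and 1.96, 1.18 and 1.68 at 24 h. Of the others, A_99_P486982, well above background on 6 of 8 arrays, read -0.64, -5.24 and -5.05 at 16 h and 4.09, 3.42 and 3.92 at 24 h. The second step of A_99_P486982 was 7.45, against 2.05 for A_99_P225531 and 3.71 for the other member, A_99_P419137, and it differed between the 16 h arrays where A_99_P225531 hardly did.

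Dry-seed levels of many members were close to the detection limit. On the dry-seed arrays the median member signal was 38.9 and 37.5 (linear units), against a detection limit (the lowest signal with the flag) of 7.69 and 8.98. Within 2-fold of that limit were 23 members on replicate 1 and 36 on replicate 2. The scanner software's own error was 11.1% and 11.4% of the signal for the median member on these arrays, and at most 21.0% and 22.3%. With normexp, a background correction that adds an offset and so compresses dim signals, the median first step was 1.82 in place of 2.53 and the median second step 1.91 in place of 1.97. Both steps still reached 1.5 for 60 of the 71 members that were brightest in dry embryos and for 26 of the 71 that were dimmest. The offset was 50, above the median member signal in dry embryos, so a smaller first step of the dimmer members was fixed in advance. Their median first step was 0.90 after normexp against 2.73, and their median second step 1.91 against 2.04. The comparison therefore cannot tell which size of the first step is right.

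The requirement of signal in dry embryos left out more probes than it kept. A further 424 probes met both steps but were not well above background on all 8 arrays. All 424 were above background on every 24 h array and 417 on all imbibed arrays, of which 371 were so on neither dry-seed array and 46 on 1. Where a dry-seed array lacked such signal, the first step rests on a value that was not well above background. The few probes outside the 417 lacked it on a 16 h array, so both of their steps rest on such a value. None of the 424 were counted as members.

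The limit of 1.5 fell among closely spaced values. Just inside it were A_99_P480207 (TA51500_4565), with 1.502 as its smaller step, A_99_P567977 (TA82011_4565) with 1.508, and A_99_P297671 (AK335063) and A_99_P302456 (TA82394_4565) with 1.511 each. Just outside were A_99_P349026 (TA96432_4565) with 1.485, A_99_P243936 (TA65484_4565) with 1.481, and A_99_P519947 (TA49801_4565) and A_99_P428782 (TA49966_4565) with 1.475 each. Of those outside, A_99_P519947 was 110-fold higher at 24 h than in dry embryos, with a first step of 5.31.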

How the data were processed

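Total RNA of embryo pools was labelled with Cy3 and read on 1-colour Agilent arrays. Per the file headers, Agilent Feature Extraction 10.7.3.1 made the deposited intensity values: the processed signal is background-subtracted and detrended within the array and was not scaled between arrays. The authors' deposited table is in log2 units. Its columns correlated at 1.0 across probes with the scaled scanner values centred on each probe's median, with the columns of 24 h replicates 2 and 3 exchanged. Its column medians were 0.47 and 0.50 for dry embryos, -0.05, 0.00 and -0.04 at 16 h and -0.07, 0.00 and -0.06 at 24 h.

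Each array's log2 processed signal was reduced by its 75th percentile over non-control spots, and replicate spots were averaged by probe. A probe counted as well above background when at least 50% of its spots carried the scanner's flag. limma 3.58.1 in R 4.3.3 (a mean per group, all 8 arrays) tested 30833 probes, those with the flag throughout 1 or more groups, leaving out flagged outlier spots (3 to 15 per array). A call needed a Benjamini-Hochberg adjusted p below 0.05 and a 2-fold change. No wheat spot was saturated. The fit and the rule were tested on simulated data, as a check of the code only. Noise there was drawn separately for each probe and array, unlike the members' common deviation on 16 h replicate 1. Nothing about the members is read from it. The number of arrays limits the precision.

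The members, the named-probe rule (extremes of rise, level, step balance, 16 h spread and shared names, and the probes nearest the limit) and the alternatives were chosen with earlier results of these data known. Word lists for functional groups and markers matched no name on the array and were not used. Equal replicate numbers were not taken as pairs: their deviations correlated at 0.119, 0.092 and -0.04 between 24 h and 16 h across probes. Alternatives were other scalings (spike-in, quantile, median, detected probes), normexp, the deposited table, other filters and limits, a slide term, the replicate number, and leaving out arrays.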

Additional observations from a re-analysis of the deposited data

How the results depend on the processing

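The count of 142 members moved by over 1.5 times under spike-in scaling, normexp, no filter on dim probes and other step limits. Relative to the spike-ins 1565 probes met the rule, including all 142, since the median tested probe rose by 2.82 at the first step and 0.60 at the second on that scale. It was 87 with normexp background correction (86 of them shared), 566 with no filter on dim probes, 388 with steps of at least 1 and 45 with steps of at least 2. Quantile scaling gave 136 (133 shared), median scaling 121 and the 75th percentile over detected probes 160. Leaving out single arrays gave 125 to 161 members, 114 of them shared without 16 h replicate 2 and 118 without 16 h replicate 1. Between 132 and 139 of the 142 were called higher at both steps without single arrays, and 97 with normexp. The range of the 16 h arrays' median member level was 1.24 and lay between 1.09 and 1.5 under the other scalings and corrections; without single arrays it ran from 0.21 to 1.24, lowest without 16 h replicate 1.

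Probes called higher at 16 h than in dry seed numbered 7922 (8150 lower), 26761 relative to the spike-ins (847 lower), 4021 with normexp (12608 lower) and 5066 when all 8 arrays had to be well above background. For 24 h over 16 h there were 3593 (2088 lower), 8990 relative to the spike-ins (728 lower), 2167 with normexp, 1692 with signal on all 8 arrays (1618 lower) and 8198 with no fold minimum (7805 lower). For 24 h over dry seed there were 9039 (8311 lower), 27993 relative to the spike-ins (772 lower), 4749 with normexp (12591 lower) and 5412 with signal on all 8 arrays. With no filter on dim probes 30.9% of the calls at 16 h and 33.8% at 24 h over dry seed were higher, against 49.3% and 52.1%. Without single arrays the counts were 7764 to 8070, 3104 to 4158 and 8895 to 9100 in the same order. With the replicate number as a block they were 7906, 3576 and 9017, and 138 members were called at both steps, as in the fit without the block. Dropping the fold minimum can only add calls, and fewer probes were tested when all 8 arrays had to be well above background. Relative to the spike-ins, the median tested probe rose by 2.82 from dry seed to 16 h (log2). It rose by 0.60 from 16 h to 24 h and by 3.54 from dry seed to 24 h. The cause of the remaining differences was not tested.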
